A study of Mus musculus with 8 samples.

Results

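Integrin genes of leukocytes and macrophages, 10 in all, were followed on 8 single-colour Agilent arrays of mouse peritoneal macrophages: Itgam, Itgax, Itgal, Itgb2, Itga4, Itga6, Itgb1, Itgb7, Itgb3 and Itgb5. Their probes were found by the accession printed on the array, which gave 16 probes for the 10 genes among 55681 noncontrol probes. All 16 probes were well above background on all 8 arrays, so no gene was lost to a filter on dim signals. The 10 genes were 10 of the 22910 features tested.

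The arrays formed 4 groups of 2. Fra-1 knockout arrays came from Fra-1lox/lox MxCre-/+ mice and were labelled thioglycollate elicited, as were their controls from Fra-1lox/lox littermates without Cre. Arrays labelled Fra-2 knockout came from Fra-2lox/lox LysMCre-/+ mice, and their controls from Fra-2lox/lox littermates, with no such label. Both control groups carried the floxed allele and were called wild-type by the submitters. All mice were 8 weeks old, male or female, on a 129/C57Bl6 background. Cells were lavaged from the peritoneum and plated overnight, and RNA was taken from the adherent cells. Fosl1 encodes Fra-1 and Fosl2 encodes Fra-2, which both belong to the AP-1 transcription factors. Mx Cre is switched on by interferon and is not restricted to 1 cell type, and LysM Cre is active in myeloid cells. The number of mice in the design note equals the number of arrays, but nothing says that an array is 1 mouse, so p-values measure only the spread between these samples, which may be technical. The Fra-1 and Fra-2 lines differ in deleted gene, Cre, thioglycollate label and preparation together, and these cannot be told apart.

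Integrins are receptors made of an alpha and a beta subunit that bind matrix proteins or proteins on other cells. The beta 2 subunit pairs with alpha M, alpha X or alpha L to make the leukocyte integrins that bind complement fragments, fibrinogen and ICAM proteins. The beta 1 subunit pairs with many alpha subunits, beta 7 with alpha 4 or alpha E, and beta 3 and beta 5 with alpha V. Alpha M is the classical surface marker of myeloid cells in the peritoneum, and alpha X is used as a marker of dendritic cells and of some macrophages.

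Signals are given as normalized log2 signal, the log2 of the processed signal minus that of the array's 75th percentile, so that 0 is the 75th percentile of the array. Levels are compared between arrays for 1 probe and never between probes. Differences are on the log2 scale, and adjusted p-values come from limma, fitted to all 22910 features with Benjamini-Hochberg adjustment. A gene was called at an adjusted p under 0.05.

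RefSeq promoter windows of assembly GRCm38.p6, covering 250 bases before to 50 bases after the start site, were at hand for 6 of the 10 genes. Those of Itgax, Itgam, Itgb7 and Itga4 are shown as examples of the patterns below: Itgax and Itgb7 were higher and Itga4 lower in the Fra-1 line, and the probes of Itgam disagreed. Capitals mark the AP-1 site TGAGTCA, read on both strands, in Itgax, and the PU.1-type site GAGGAAG or its reverse CTTCCTC in Itgam and Itgb7. The windows are chr7:128129300-128129599 on the plus strand for Itgax, chr7:128062390-128062689 on the plus strand for Itgam, chr15:102231886-102232185 on the minus strand for Itgb7 and chr2:79255176-79255475 on the plus strand for Itga4.
Itgax: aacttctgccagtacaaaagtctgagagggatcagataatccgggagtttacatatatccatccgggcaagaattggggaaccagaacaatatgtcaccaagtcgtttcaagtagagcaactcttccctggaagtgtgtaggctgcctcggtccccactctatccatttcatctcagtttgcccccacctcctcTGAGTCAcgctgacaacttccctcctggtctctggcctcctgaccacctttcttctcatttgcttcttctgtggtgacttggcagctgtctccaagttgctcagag
Itgam: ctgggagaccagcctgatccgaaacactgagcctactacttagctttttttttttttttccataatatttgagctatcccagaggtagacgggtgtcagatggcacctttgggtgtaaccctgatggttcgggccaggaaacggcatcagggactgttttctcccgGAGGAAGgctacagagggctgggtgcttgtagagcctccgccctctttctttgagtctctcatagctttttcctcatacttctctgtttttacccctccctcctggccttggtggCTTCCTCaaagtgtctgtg
Itgb7: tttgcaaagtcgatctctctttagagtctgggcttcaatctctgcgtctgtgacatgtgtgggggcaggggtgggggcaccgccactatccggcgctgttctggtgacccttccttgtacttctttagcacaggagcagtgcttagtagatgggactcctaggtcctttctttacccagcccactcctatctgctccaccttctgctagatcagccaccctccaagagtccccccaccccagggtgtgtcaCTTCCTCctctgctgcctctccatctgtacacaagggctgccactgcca
Itga4: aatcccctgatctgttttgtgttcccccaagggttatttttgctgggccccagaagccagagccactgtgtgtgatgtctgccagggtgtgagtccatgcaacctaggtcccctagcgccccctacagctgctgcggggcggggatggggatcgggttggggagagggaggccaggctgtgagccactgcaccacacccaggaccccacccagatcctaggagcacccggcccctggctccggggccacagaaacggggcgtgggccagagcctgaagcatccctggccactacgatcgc

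The AP-1 letters began at position −56 from the start site in the Itgax window, and 5.20% of 32851 promoter windows of the same length held them. The letters GAGGAAG were found on the plus strand at position −84 and on the minus strand at position 32 in Itgam, and on the minus strand at position 2 in Itgb7, and 13.6% of windows held them. The GATA letters AGATAA, searched on both strands, were found in Itgax at position −217 and are held by 11.2% of windows. None of these letters was found in the Itga4 window, nor in those of Itgb5 and Itgb1, which were searched but are not shown. Itgb5 was higher and Itgb1 lower in the Fra-1 line. The cyclic AMP response letters TGACGTCA, held by 1.79% of windows, were found in none of the 6. The searched motifs do not overlap where they were found. These matches describe the letters only.

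Across the whole series, 47.7% to 57.6% of 59305 noncontrol spots per array were well above background, the lowest share on Fra-2 knockout 1. Over the probes well above background on all 8 arrays, Pearson correlations were 0.925 to 0.936 between arrays of different mouse lines. Probes dim on any array were left out of these values. Within groups they ran from 0.987 (the Fra-2 knockout arrays) to 0.995 (the Fra-1 knockout arrays). Slide 1 held Fra-1 knockout 1, both Fra-1 controls, Fra-2 knockout 1 and Fra-2 control 1, and slide 2 held the other 3 arrays. Fosl1 was not well above background on either Fra-1 knockout array, at −4.78 and −4.18, and was well above it on both Fra-1 control arrays, at −2.73 and −1.97, at least 3.91-fold lower in the knockout (limma adjusted p = 0.364). The brighter Fosl2 probe read 6.43 and 7.14 on the arrays labelled Fra-2 knockout and 5.51 and 5.57 on their controls. The dimmer Fosl2 probe read −3.96 and −3.82 against −2.59 and −2.64 on the same arrays. The 2 Fosl2 probes thus differed in opposite directions, and neither difference was called (adjusted p = 0.207 over features for the brighter and 0.298 over all probes for the dimmer). Where these probes lie relative to the deleted part is not known here, so the label Fra-2 knockout was not checked by them.

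Of the 12 general macrophage markers, 11 passed the filter. Of these, 10 were well above background on both arrays of each Fra-1 group, with Cd163 below it. All 11 were so on both arrays of each Fra-2 group. Between the lines 8 of the 11 were called lower in the Fra-1 line and 2 higher, in controls and in knockouts alike. Over all features 17.9% were lower and 18.1% higher in controls, and 18.9% and 22.4% in knockouts. Their summed signal is given as multiples of the array's 75th percentile. It was 929 to 1003 in Fra-1 knockouts and 964 to 1209 in Fra-1 controls. In the Fra-2 line it was 1256 to 1258 in knockouts and 1326 to 1539 in controls. The summed signal of markers of other cells, in the same unit, also moved with the mouse line. B cell markers summed to 2.76 to 6.91 in Fra-1 knockouts, 2.06 to 4.52 in Fra-1 controls, 57.6 to 84.7 in Fra-2 knockouts and 46.8 to 92.9 in Fra-2 controls. Mast cell markers summed to 1.60 to 1.76 in Fra-1 knockouts, 2.45 to 3.01 in Fra-1 controls, 62.2 to 123 in Fra-2 knockouts and 48.8 to 144 in Fra-2 controls. Markers of large resident peritoneal macrophages summed to 19.7 to 20.7 in Fra-1 knockouts, 22.0 to 27.3 in Fra-1 controls, 308 to 453 in Fra-2 knockouts and 182 to 312 in Fra-2 controls. Of the 12 resident macrophage markers tested, 8 were called lower and 1 higher in the Fra-1 line in controls. In knockouts 10 were called lower and 2 higher, beside the shares of all features given above. T and NK cell markers summed to 78.1 to 78.2 in Fra-1 knockouts, 68.9 to 78.7 in Fra-1 controls, 16.4 to 19.5 in Fra-2 knockouts and 18.1 to 24.0 in Fra-2 controls. That sum was carried by Il7r, at 6.21 and 6.22 in Fra-1 knockouts, 6.23 and 6.02 in Fra-1 controls, 0.18 and −0.09 in Fra-2 knockouts and 0.45 and 0.73 in Fra-2 controls on the log2 scale. Of the 9 T and NK markers tested, 7, Cd3e and Cd3d among them, were lower in the Fra-1 line in both comparisons and Il7r alone was higher. Of the defining markers, Timd4 of resident macrophages and Cd79a of B cells were below background on all Fra-1 arrays. Pax5 of B cells was below background there and on both Fra-2 knockout arrays, and Ms4a2 of mast cells on all 8 arrays. In such samples a change in the number of cells of a type and in the RNA per cell cannot be told apart, and the part of these cells in the integrin results was not tested.

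Between the mouse lines, 5 of the 10 integrin genes were higher in the Fra-1 line in both the control and the knockout comparison: Itgax, Itgb5, Itgb7, Itgb2 and, on its brighter probe, Itgb3. Itga4 and Itgb1 were lower in the Fra-1 line in both comparisons, and Itga6 and Itgal were lower in Fra-1 knockouts than in Fra-2 knockouts. The brightest Itgam probe was called in neither comparison, whereas its other 2 probes were lower in the Fra-1 line. In controls, 7 of the 10 genes were called (5 higher and 2 lower), against 36.0% of all features, of which 18.1% were higher and 17.9% lower. In knockouts, 9 of the 10 were called (5 higher and 4 lower), against 41.3% of all features, 22.4% higher and 18.9% lower. The arrays of the groups did not overlap for 7 genes in controls, against 71.8% of features, and for 9 genes in knockouts, against 75.3%. The median size of the difference over the 10 genes was 1.20 in controls, against 0.46 over all features, and 1.87 in knockouts, against 0.52.

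**Figure D1:**
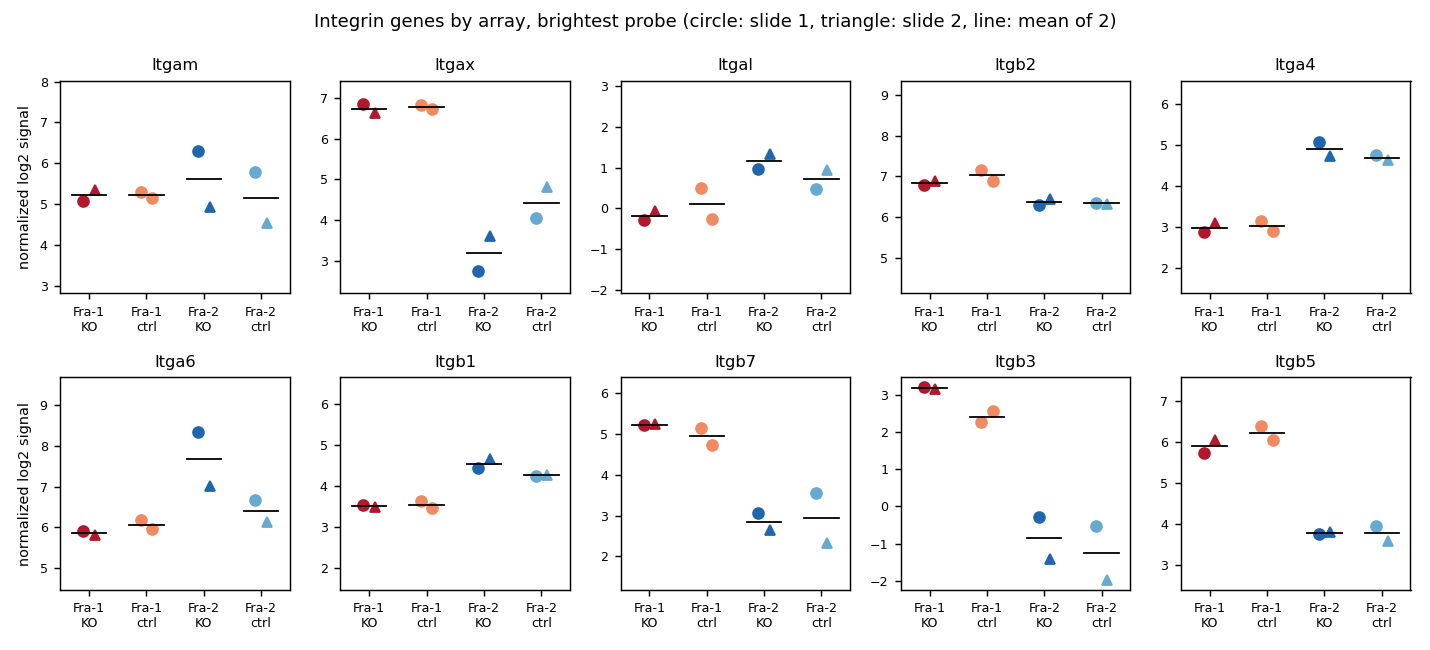
Normalized log2 signal (vertical axis) of the 10 integrin genes on each of the 8 arrays by group, 1 panel per gene with its brightest probe; points are arrays, circles slide 1 and triangles slide 2, and lines are means of 2 arrays. Itgax, Itgb7, Itgb3 and Itgb5 sit higher on all Fra-1 arrays than on any Fra-2 array, and Itga4 and Itgb1 lower.

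Among the alpha subunits that pair with beta 2, Itgax, which encodes alpha X (CD11c), differed most between lines. Its signal was 6.85 and 6.62 on Fra-1 knockout arrays, 6.82 and 6.74 on Fra-1 control arrays, 2.77 and 3.63 on Fra-2 knockout arrays and 4.06 and 4.81 on Fra-2 control arrays. The 4 Fra-1 arrays lay close together and above all Fra-2 arrays, and within the Fra-2 line both arrays labelled knockout lay below both controls. Itgax was 5.08-fold higher in Fra-1 than in Fra-2 controls (log2 difference 2.35, SE 0.35, adjusted p = 0.0043) and 11.6-fold higher in Fra-1 than in Fra-2 knockouts (3.54, SE 0.35, adjusted p = 0.00097). Dendritic cell markers, a list without Itgax, summed to 3.29 to 3.38 in Fra-1 knockouts, 1.01 to 2.58 in Fra-1 controls, 6.21 to 7.69 in Fra-2 knockouts and 6.09 to 13.7 in Fra-2 controls. This sum was lower on every Fra-1 array than on any Fra-2 array. Of the 6 dendritic cell markers tested, 4 were called lower in the Fra-1 line in controls and 2 in knockouts. The shares of all features called lower were 17.9% and 18.9%. In each comparison 1 of the 6 differences was positive. The part of dendritic cells in the Itgax values was not tested.

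Itgam, which encodes alpha M (CD11b), was read by 3 probes that disagreed. The brightest read 5.08 and 5.35 in Fra-1 knockouts, 5.30 and 5.16 in Fra-1 controls, 6.29 and 4.92 in Fra-2 knockouts and 5.79 and 4.54 in Fra-2 controls. Its groups overlapped in both line comparisons, with log2 differences of 0.07 in controls and −0.39 in knockouts (adjusted p = 0.935 and 0.600). On this probe both Fra-2 arrays of slide 1 were higher than both Fra-2 arrays of slide 2, while the 2 Fra-1 knockout arrays, which were also split between the slides, differed less.

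The other 2 Itgam probes differed less between the slides. Probe A_55_P1977929 read 2.98 and 3.09 in Fra-1 knockouts, 2.79 and 2.74 in Fra-1 controls, 4.95 and 4.74 in Fra-2 knockouts and 5.06 and 4.77 in Fra-2 controls. Probe A_55_P1977926 read −1.01 and −1.13 in Fra-1 knockouts, −1.16 and −1.58 in Fra-1 controls, 0.69 and 0.69 in Fra-2 knockouts and 0.87 and 0.80 in Fra-2 controls. Both were lower on every Fra-1 array than on any Fra-2 array. In the fit of all 30819 probes the log2 differences in controls were −2.15 and −2.21 (adjusted p = 0.00043 and 0.0005), and in knockouts −1.81 and −1.76 (adjusted p = 0.00062 and 0.00088). The brightest probe and A_55_P1977929 carry the same accession. Which probe follows the Itgam transcript was not tested.

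Itgal, which encodes alpha L of the lymphocyte integrin LFA-1, read −0.29 and −0.07 in Fra-1 knockouts, 0.50 and −0.27 in Fra-1 controls, 0.97 and 1.33 in Fra-2 knockouts and 0.47 and 0.95 in Fra-2 controls. The knockout groups did not overlap, while Fra-1 control 1 lay just above Fra-2 control 1. Itgal was 2.52-fold lower in Fra-1 than in Fra-2 knockouts (−1.33, SE 0.31, adjusted p = 0.017), and the control difference of −0.59 was not called (adjusted p = 0.181). With 1 array left out, the knockout difference was no longer called for 3 of them: it was −1.22 without Fra-1 knockout 1, −1.44 without Fra-1 knockout 2 and −1.15 without Fra-2 knockout 2 (adjusted p = 0.0877, 0.0585 and 0.0694). Its dimmer probe gave −1.25 in knockouts (adjusted p = 0.0252) and −0.53 in controls (adjusted p = 0.249).

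Itgb2, the common beta subunit (CD18), read 6.80 and 6.88 in Fra-1 knockouts, 7.17 and 6.89 in Fra-1 controls, 6.30 and 6.46 in Fra-2 knockouts and 6.36 and 6.32 in Fra-2 controls. All Fra-1 arrays lay above all Fra-2 arrays, by a small margin. The gene was 1.62-fold higher in Fra-1 than in Fra-2 controls (0.69, SE 0.14, adjusted p = 0.0125) and 1.38-fold higher in Fra-1 than in Fra-2 knockouts (0.46, SE 0.14, adjusted p = 0.0431). The difference between knockouts was not called in 10 of the 19 alternatives that give a test, among them each of the 4 knockout arrays left out (adjusted p between 0.0663 and 0.182) and each Fra-2 control left out (adjusted p = 0.0699). The 10 include the rule of a log2 difference of at least 1, which a difference of 0.46 could not meet. With the slide as a block the difference between knockouts was not called either (0.46, adjusted p = 0.0572). That between controls was not called when Fra-1 control 1, Fra-2 control 1 or Fra-2 control 2 was left out (adjusted p = 0.0511, 0.0503 and 0.0598).

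**Figure D2:**
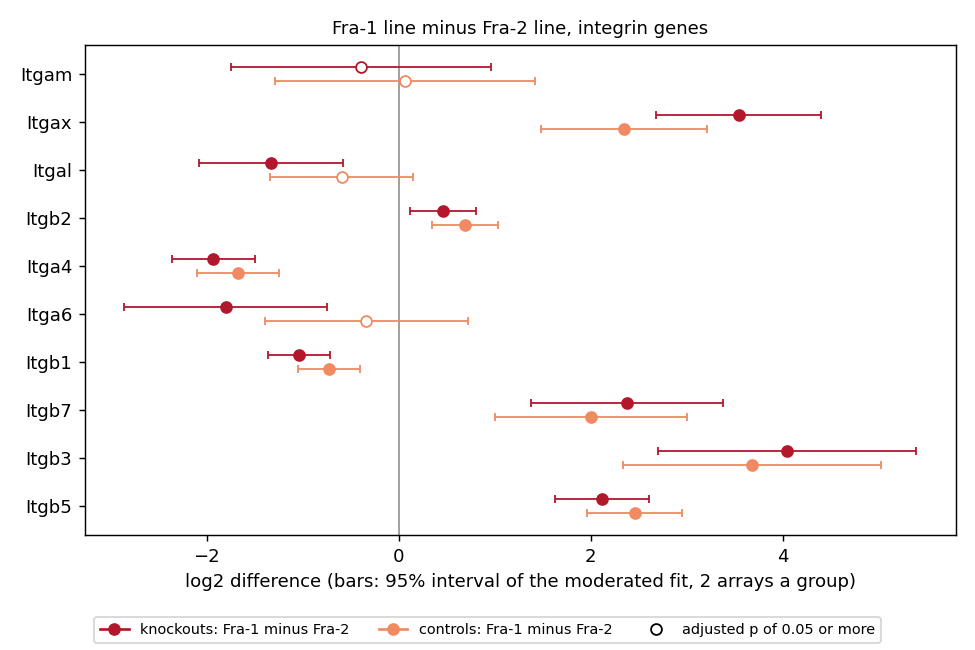
Log2 difference (horizontal axis) between Fra-1 and Fra-2 knockouts (dark red, upper of each pair) and between Fra-1 and Fra-2 controls (orange, lower) for the 10 integrin genes; points are fitted values, bars 95% intervals of the moderated fit, and open points have an adjusted p of 0.05 or more. Itgb3 lies farthest to the right at 4.04 and 3.68, and Itga4 farthest to the left at −1.93 and −1.67.

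Itga4, which encodes alpha 4, the partner of beta 1 and beta 7 in binding VCAM-1 and fibronectin, was lower in the Fra-1 line on both of its probes. The brighter probe read 2.86 and 3.09 in Fra-1 knockouts, 3.14 and 2.90 in Fra-1 controls, 5.07 and 4.74 in Fra-2 knockouts and 4.76 and 4.63 in Fra-2 controls. No Fra-1 array came near a Fra-2 array. The difference was 3.19-fold in controls (−1.67, SE 0.17, adjusted p = 0.0012) and 3.81-fold in knockouts (−1.93, SE 0.17, adjusted p = 0.00072), and the dimmer probe gave −1.99 in controls and −2.14 in knockouts (adjusted p = 0.00068 and 0.0005).

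Itgb1, the beta 1 subunit that pairs with alpha 4 and alpha 6 among others, read 3.54 and 3.49 in Fra-1 knockouts, 3.62 and 3.46 in Fra-1 controls, 4.43 and 4.66 in Fra-2 knockouts and 4.26 and 4.27 in Fra-2 controls. Arrays of 1 group were close to each other, and the lines did not overlap. Itgb1 was 1.65-fold lower in Fra-1 than in Fra-2 controls (−0.72, SE 0.13, adjusted p = 0.0085) and 2.05-fold lower in Fra-1 than in Fra-2 knockouts (−1.04, SE 0.13, adjusted p = 0.0022). Its dimmer probe gave −0.83 and −1.07 for the same comparisons (adjusted p = 0.0108 and 0.0039).

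Itgb7, the beta subunit of the gut-homing integrin with alpha 4, moved opposite to Itga4. Its signal was 5.22 and 5.24 in Fra-1 knockouts, 5.15 and 4.73 in Fra-1 controls, 3.07 and 2.64 in Fra-2 knockouts and 3.56 and 2.32 in Fra-2 controls. All Fra-1 arrays lay above all Fra-2 arrays, and the 2 Fra-2 controls were the most spread group. Itgb7 was 4.01-fold higher in Fra-1 than in Fra-2 controls (2.00, SE 0.41, adjusted p = 0.0126) and 5.20-fold higher in Fra-1 than in Fra-2 knockouts (2.38, SE 0.41, adjusted p = 0.0063). When Fra-1 control 1 was left out, the control difference was 1.79 and no longer called (adjusted p = 0.0691). It was 2.62 without Fra-2 control 1 and 1.39 without Fra-2 control 2, and called in both cases.

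Itga6, which encodes alpha 6, a laminin receptor subunit with beta 1 or beta 4, read 5.92 and 5.82 in Fra-1 knockouts, 6.17 and 5.95 in Fra-1 controls, 8.33 and 7.01 in Fra-2 knockouts and 6.67 and 6.13 in Fra-2 controls. Fra-2 knockout 1 stood highest of the 8 arrays, and the controls of the 2 lines overlapped. Itga6 was 3.49-fold lower in Fra-1 than in Fra-2 knockouts (−1.80, SE 0.43, adjusted p = 0.0195), and the control difference of −0.34 was not called (adjusted p = 0.576). With either Fra-1 knockout array left out the knockout difference was not called (adjusted p = 0.0763 and 0.085). It was −1.14 without Fra-2 knockout 1 and −2.47 without Fra-2 knockout 2, and called in both cases. The test of whether the 2 line comparisons differ called neither Itga6 (−1.47, 95% interval −2.96 to 0.02, adjusted p = 0.525) nor Itgal (−0.74, 95% interval −1.79 to 0.32, adjusted p = 0.631). The summed markers of large resident macrophages were also highest on Fra-2 knockout 1, at 453, against 308 on Fra-2 knockout 2, 312 on Fra-2 control 1 and 182 on Fra-2 control 2. Their part in the Itga6 result was not tested.

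Itgb3, the beta 3 subunit that makes a vitronectin and osteopontin receptor with alpha V, was read by 2 probes that disagreed. The brighter read 3.21 and 3.16 in Fra-1 knockouts, 2.28 and 2.56 in Fra-1 controls, −0.29 and −1.43 in Fra-2 knockouts and −0.53 and −1.99 in Fra-2 controls. On it Itgb3 was 12.8-fold higher in Fra-1 than in Fra-2 controls (3.68, SE 0.55, adjusted p = 0.0042) and 16.5-fold higher in Fra-1 than in Fra-2 knockouts (4.04, SE 0.55, adjusted p = 0.0027). The dimmer probe read −1.33 and −1.34 in Fra-1 knockouts, −1.44 and −1.49 in Fra-1 controls, −2.49 and −0.69 in Fra-2 knockouts and −0.48 and 1.81 in Fra-2 controls. It was flat across the Fra-1 arrays and spread over the Fra-2 arrays, where slide 2 was higher than slide 1 in each group, the reverse of the brighter probe. Its differences were −2.13 in controls and 0.26 in knockouts (adjusted p = 0.100 and 0.830). Without Fra-2 control 1 the brighter probe gave 4.40 between controls, and without Fra-2 control 2 it gave 2.95, both called. With the mean of both probes, Itgb3 was 0.77 higher in Fra-1 than in Fra-2 controls (adjusted p = 0.0232) and 2.15 higher in knockouts (adjusted p = 0.00066).

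Itgb5, the other partner of alpha V here, which macrophages use in taking up dying cells, read 5.74 and 6.06 in Fra-1 knockouts, 6.39 and 6.05 in Fra-1 controls, 3.76 and 3.80 in Fra-2 knockouts and 3.95 and 3.58 in Fra-2 controls. The lines were far apart relative to the spread within groups. Itgb5 was 5.49-fold higher in Fra-1 than in Fra-2 controls (2.46, SE 0.20, adjusted p = 0.00057) and 4.34-fold higher in Fra-1 than in Fra-2 knockouts (2.12, SE 0.20, adjusted p = 0.00083).

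**Figure D3:**
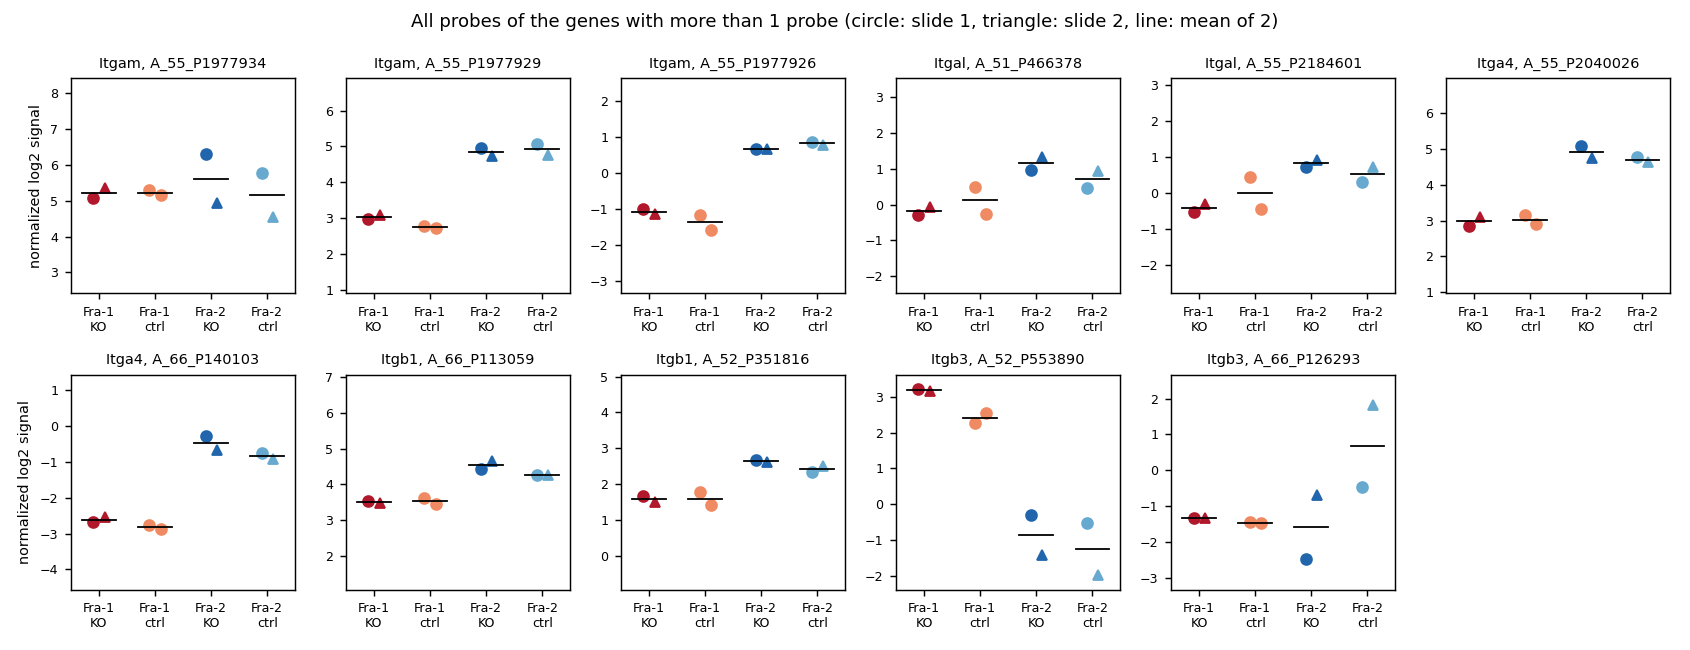
Normalized log2 signal (vertical axis) on each array for all 11 probes of the 5 integrin genes with more than 1 probe, brightest probe first within a gene; points are arrays, circles slide 1 and triangles slide 2, and lines are means of 2 arrays. The probes of Itgal, Itga4 and Itgb1 run alike, while those of Itgam and of Itgb3 do not.

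The deletion of Fra-1 was set against floxed littermates to ask what it changes in these cells. None of the 10 integrin genes was called in Fra-1 knockouts against their controls, and 0.0131% of all features were called (3 of 22910). At an unadjusted p under 0.05 none of the 10 stood out either, against 8.84% of features. The groups did not overlap for 4 of the 10 genes, against 46.4% of features: Itgb3 and Itgb7 were above their controls and Itga6 and Itgb2 below. Differences ran from −0.32 for Itgb5 (95% interval −0.81 to 0.17, adjusted p = 0.679) to 0.77 for the brighter Itgb3 probe (95% interval −0.57 to 2.11, adjusted p = 0.717). Itgax differed by −0.04 (95% interval −0.90 to 0.82). The narrowest interval was that of Itgb1, −0.35 to 0.29, and the widest that of Itgam, −1.36 to 1.34.

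In the arrays labelled Fra-2 knockout against their controls none of the 10 genes was called either, with 0.00873% of all features called (2 of 22910). At an unadjusted p under 0.05 there were 2 of the 10, Itgax and Itga6, against 8.82% of features. Itgax was 2.36-fold lower in the arrays labelled knockout (−1.24, 95% interval −2.10 to −0.37, adjusted p = 0.369), and lower by a similar amount within slide 1 (−1.29) and within slide 2 (−1.18). Itga6 was 2.41-fold higher (1.27, 95% interval 0.22 to 2.32, adjusted p = 0.47), with 1.66 within slide 1 and 0.88 within slide 2. Without Fra-2 knockout 1 the Itga6 difference was 0.61 and that of Itgax −0.81. The groups did not overlap for 4 genes, against 35.1% of features: Itgax was below its controls, and Itga6, Itgal and Itgb1 above. The other 8 genes differed by −0.09 to 0.45. On the dimmer Itgb3 probe the arrays labelled knockout were lower by −2.26 (adjusted p = 0.539).

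Markers of monocyte-derived or small peritoneal macrophages summed to 323 and 306 on the arrays labelled Fra-2 knockout, against 488 and 442 on their controls. This sum, like Itgax, was lower on both arrays labelled knockout. Of these 10 markers 8 differences were negative and 2 positive. None was called, and 3 had an unadjusted p under 0.05, against 8.82% of features. The sum was not alone in this direction. General macrophage markers also summed lower on both arrays labelled knockout, with 10 of 11 differences negative, and all 9 T and NK marker differences were negative. The part of these cells in the Itgax values was not tested. In the Fra-1 line the sum of monocyte-derived or small macrophage markers was 233 and 257 in knockouts and 192 and 258 in controls, and overlapped.

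No gene of the 10 was called in the test of whether the 2 knockout effects differ, in which 0.00436% of features were called (1 of 22910). At an unadjusted p under 0.05 there was none of the 10 either, against 9.55% of features. The differences farthest from 0 were −1.47 for Itga6 (95% interval −2.96 to 0.02, adjusted p = 0.525) and 1.19 for Itgax (95% interval −0.03 to 2.41, adjusted p = 0.528).

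**Figure D4:**
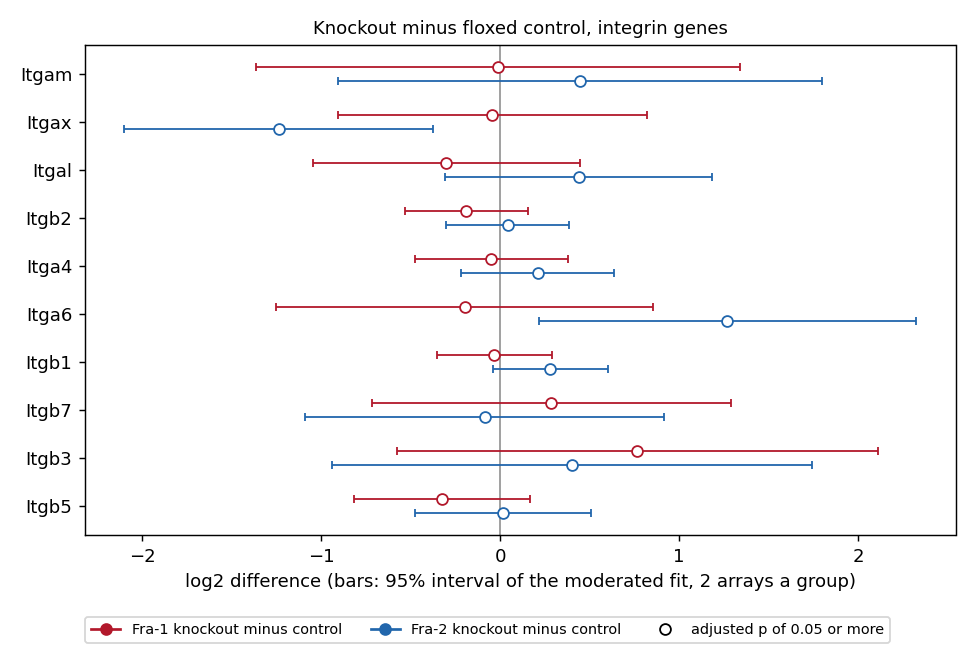
Log2 difference (horizontal axis) of Fra-1 knockouts from their controls (red, upper of each pair) and of the arrays labelled Fra-2 knockout from theirs (blue, lower) for the 10 integrin genes; points are fitted values and bars 95% intervals of the moderated fit, and all points are open because no adjusted p was under 0.05. Itgax at −1.24 and Itga6 at 1.27 in the Fra-2 line are the points whose interval leaves out 0.

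Of 16 other integrin subunit genes, 14 were on the array and 8 passed the filter. In controls 1 was higher and 3 were lower in the Fra-1 line, against 18.1% higher and 17.9% lower over all features. In knockouts 3 were higher and 3 lower, against 22.4% and 18.9%. Itga9, which encodes alpha 9 and is close in sequence to alpha 4, read −1.65 and −2.34 in Fra-1 knockouts, −1.80 and −1.24 in Fra-1 controls, 2.27 and 1.94 in Fra-2 knockouts and 1.98 and 1.56 in Fra-2 controls. It was lower in the Fra-1 line by 9.79-fold in controls (−3.29, adjusted p = 0.00092) and 17.1-fold in knockouts (−4.10, adjusted p = 0.00044), the same direction as Itga4.

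Itga1, a collagen receptor subunit that pairs with beta 1, was lower in the Fra-1 line by −3.39 in controls and −3.39 in knockouts (adjusted p = 0.0085 and 0.0078), and was well above background on only 1 of the 2 Fra-1 knockout arrays. Itga2b, the alpha subunit of the platelet fibrinogen receptor, which pairs with beta 3 and is also made by mast cells, was not well above background on any Fra-1 array. Mast cell markers, given above, were also lower there. Of the 7 platelet and megakaryocyte markers tested, Itga2b among them, 4 were called lower in the Fra-1 line in each comparison. The shares of all features called lower were 17.9% in controls and 18.9% in knockouts. The other 3 differences were positive in each comparison and not called. Among the markers called lower, Ppbp, a platelet chemokine gene, was at least 51.3-fold lower in Fra-1 than in Fra-2 controls and at least 33.1-fold lower in knockouts. The summed platelet markers were 2.70 to 3.42 in Fra-1 knockouts, 6.71 to 7.52 in Fra-1 controls, 3.38 to 3.92 in Fra-2 knockouts and 4.96 to 7.41 in Fra-2 controls. The part of these cells was not tested. Itga2b was at least 5.47-fold lower in Fra-1 than in Fra-2 controls and at least 3.75-fold lower in Fra-1 than in Fra-2 knockouts (adjusted p = 0.0041 and 0.0037).

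Itga3, a laminin receptor subunit, was 1.84 higher in Fra-1 than in Fra-2 controls (adjusted p = 0.0293), where 1 of 2 Fra-2 controls was well above background. It was at least 1.24-fold higher in Fra-1 than in Fra-2 knockouts (adjusted p = 0.0404), neither of which was well above background. Itga5, which makes the fibronectin receptor with beta 1, was 1.83 higher in Fra-1 than in Fra-2 knockouts (adjusted p = 0.0248), and its control difference of 1.21 was not called (adjusted p = 0.0943). Itgb4, the other partner of alpha 6, was 0.97 higher in Fra-1 than in Fra-2 knockouts, of which 1 of 2 was well above background (adjusted p = 0.0165), and differed by 0.30 in controls (adjusted p = 0.331).

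Itgav, the alpha subunit that beta 3 and beta 5 share, read 0.36 and 0.41 in Fra-1 knockouts, 0.57 and 0.45 in Fra-1 controls, 0.11 and 0.38 in Fra-2 knockouts and 0.02 and 0.32 in Fra-2 controls. Its line differences were 0.34 in controls (95% interval −0.06 to 0.73, adjusted p = 0.154) and 0.14 in knockouts (95% interval −0.25 to 0.53, adjusted p = 0.510). None of the 8 subunits was called in either knockout comparison, nor at an unadjusted p under 0.05.

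**Figure D5:**
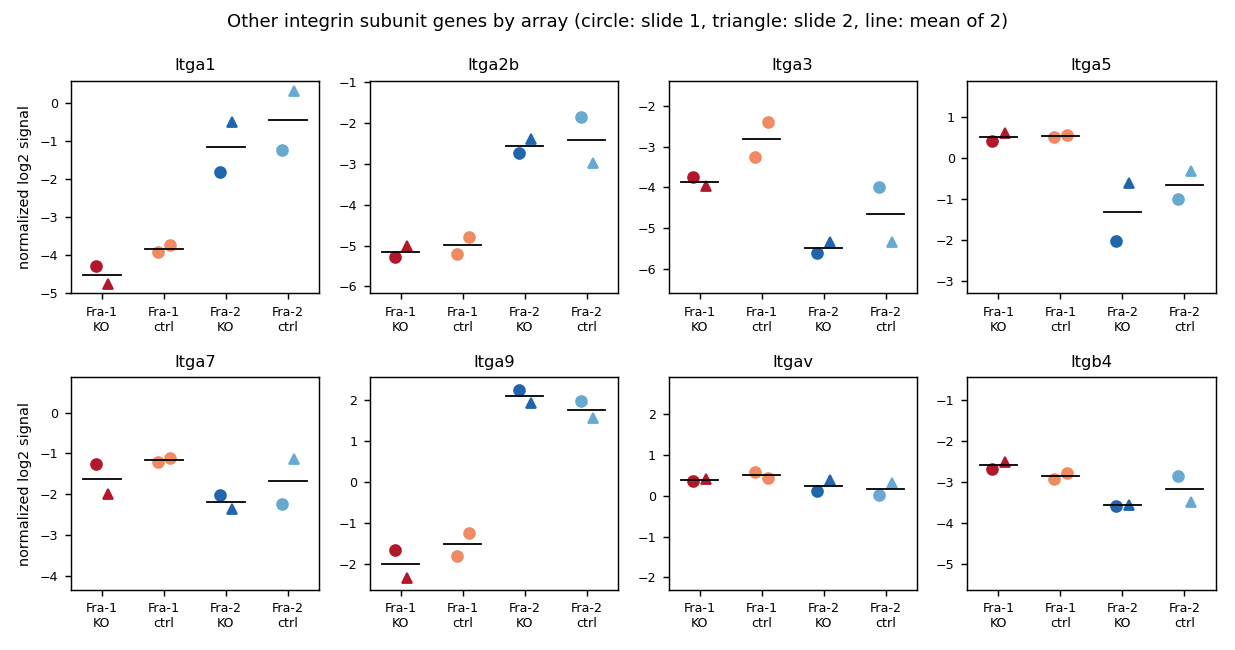
Normalized log2 signal (vertical axis) of the 8 other integrin subunit genes that were tested, on each array by group; points are arrays, circles slide 1 and triangles slide 2, and lines are means of 2 arrays. Itga9 reads 1.56 to 2.27 on the Fra-2 arrays and −2.34 to −1.24 on the Fra-1 arrays, while Itgav stays between 0.02 and 0.57 on all 8.

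Of 32 genes that activate integrins or tie them to the cytoskeleton, 30 were tested. In controls 10 were higher and 10 lower in the Fra-1 line (18.1% and 17.9% of all features), and in knockouts 12 were higher and 9 lower (22.4% and 18.9%). Higher in the Fra-1 line were Parva, a partner of integrin-linked kinase (3.69 in controls and 2.34 in knockouts), and the actin crosslinker Actn1 (1.84 and 2.50). Rapgef3, an exchange factor for Rap1 that cyclic AMP switches on, was also higher (2.40 and 2.46). The kindlin gene Fermt2, whose protein binds beta tails, was 3.03 higher in Fra-1 than in Fra-2 controls, of which 1 of 2 was well above background, and at least 6.06-fold higher in Fra-1 than in Fra-2 knockouts.

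Lower in the Fra-1 line were the exchange factor gene Rasgrp1 (−5.25 in controls and −4.55 in knockouts), the talin gene Tln2 (−3.02 and −3.69) and Skap1, an adaptor of T cells (−2.75 and −2.65). Vasp, which acts in actin assembly, was also lower in both comparisons (−1.74 and −1.57), as was Cyth1, whose protein binds the beta 2 tail (−1.39 and −1.81). The adjusted p of these genes ran up to 0.038 in controls and 0.0224 in knockouts.

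Of 19 genes for kinases and proximal signalling proteins, 18 were tested. In controls 1 was higher and 9 lower in the Fra-1 line, where 18.1% of all features were higher and 17.9% lower. In knockouts 2 were higher and 10 lower, where the shares were 22.4% and 18.9%. The Src family kinases act just below beta 2 integrins in myeloid cells. Src itself was not well above background on any Fra-1 array, and was at least 4.59-fold lower in Fra-1 than in Fra-2 controls and at least 2.59-fold lower in Fra-1 than in Fra-2 knockouts, of which 1 of 2 was well above it. Lyn was lower in the Fra-1 line in controls and knockouts (−1.38 and −1.44), as were Fgr (−1.13 and −1.19) and Zap70, a kinase of T cells (−1.81 and −1.22). Ptk2b, which encodes the focal adhesion kinase relative Pyk2, was higher in both (0.80 and 0.42). Fyn was higher in knockouts (0.96, adjusted p = 0.0045), and its control difference of 0.36 was not called (adjusted p = 0.111). The adjusted p of the kinase genes called and named here ran up to 0.0074 in controls and 0.0373 in knockouts.

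Of 35 genes for integrin ligands and counter-receptors, 34 were on the array and 26 tested. In controls 15 were higher and 7 lower in the Fra-1 line, beside 18.1% and 17.9% of all features, and in knockouts 13 were higher and 8 lower, beside 22.4% and 18.9%. Spp1, which encodes osteopontin, a ligand of alpha V and alpha 4 integrins, was 6.95 higher in Fra-1 than in Fra-2 controls and 8.06 higher in Fra-1 than in Fra-2 knockouts (adjusted p = 0.00017 and 9.8e-05). The collagen gene Col1a1 was 6.27 higher in controls and 3.88 higher in knockouts. Lama4, a laminin chain, was at least 21.0-fold higher in Fra-1 than in Fra-2 controls and at least 5.92-fold higher in knockouts, and Fbn1, which encodes fibrillin, at least 22.1-fold higher in controls and at least 5.45-fold higher in knockouts. Jam3, a counter-receptor of alpha M, was at least 16.7-fold higher in controls and at least 5.51-fold higher in knockouts. Beside these matrix genes, fibroblast markers, 1 of which is Col1a1, summed to 41.1 to 64.1 in Fra-1 knockouts, 110 to 159 in Fra-1 controls, 2.84 to 3.35 in Fra-2 knockouts and 1.55 to 3.51 in Fra-2 controls. Mesothelium markers summed to 3.09 to 4.05 in Fra-1 knockouts, 4.65 to 6.70 in Fra-1 controls, 1.46 to 2.17 in Fra-2 knockouts and 1.39 to 1.45 in Fra-2 controls. Of the 9 mesothelium markers tested, 8 were called higher in the Fra-1 line in controls and 6 in knockouts, and 0 lower. The shares of all features are given above. The part of fibroblasts and mesothelium was not tested.

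Lower in the Fra-1 line were Edil3, which encodes a secreted ligand of alpha V and beta 2 integrins, at least 95.1-fold in controls and at least 133-fold in knockouts, and Thbs1, which encodes thrombospondin (−5.09 in controls and −5.65 in knockouts). Icam1, the counter-receptor of alpha L and alpha M, was lower by −2.90 in controls and −2.97 in knockouts. C3, whose fragment alpha M and alpha X bind, was lower by −2.54 and −4.07. The adjusted p of the ligand genes named here for the line comparisons ran up to 0.0021 in controls and 0.0063 in knockouts.

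No gene of these lists was called by limma in a knockout comparison. At an unadjusted p under 0.05 there were 3 of the 30 activator and adaptor genes in each line, and 0 of the 18 kinase genes in the Fra-1 line and 3 in the Fra-2 line, against 8.84% of all features in the Fra-1 line and 8.82% in the Fra-2 line. In Fra-1 knockouts against their controls, 15 of the 26 ligand genes had an unadjusted p under 0.05, beside that 8.84%, and 21 of the 26 differences were negative, with a median of −0.59 against 0.03 over all features. The smallest p among them were those of Lama4 (−1.41, adjusted p = 0.291) and Lamb1 (−1.80, adjusted p = 0.344), both laminin chains. The fibroblast and mesothelium sums were lower in both Fra-1 knockouts than in both Fra-1 controls, as given above. In the Fra-2 line, 3 of the 26 had an unadjusted p under 0.05, beside 8.82%, among them the junction proteins F11r (0.82, adjusted p = 0.39) and Jam2 (0.77, adjusted p = 0.469). There 20 of the 26 differences were positive, with a median of 0.40 against −0.03 over all features. In the test of whether the 2 knockout effects differ, 11 of the 26 had an unadjusted p under 0.05, beside 9.55%, and none was called. Of these 26 values 20 were negative, with a median of −0.90 against 0.05 over all features.

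Over the 8 arrays the genes most like each integrin gene by Pearson correlation were sought among 11412 named genes well above background on all arrays. They were Gstm2 and Sdc1 for Itgax (both 0.998), Herc4 and Il16 for Itga4 (both 0.998), Sptbn4 and Tarsl2 for Itgb3 (0.994 and 0.993) and Gatc and Pmaip1 for Itga6 (0.989 and 0.985). For Itgam, whose brightest probe did not separate the lines, the highest values were lower, with Esr1 at 0.917 and Lyl1 at 0.913. The arrays fall into 2 clusters by line, so for genes that differ between lines these values mainly restate that difference, and they are a description only.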

How the data were processed

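RNA of adherent peritoneal cells was labelled with Cy3 and hybridised to 8 single-colour Agilent arrays. The deposited scanner files were made with Feature Extraction 11.5.1.1 and give a background-subtracted intensity, not log-transformed, as the file headers record (per the file headers). Flags for background, outliers and saturation are deposited scores of 0 or 1. A series matrix with log2 values was also deposited, and these values, set against the scanner values, were scaled to the 75th percentile and centred on each probe's median (r of 0.99999). It was used as an alternative only.

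Control spots and 191 to 317 outlier spots per array were left out, spots of a probe were averaged, and log2 signal minus the array's 75th percentile (signals of 315 to 470) was used. A probe was kept when well above background on both arrays of at least 1 group and with a value on all 8 arrays (30819 probes). Accessions were matched to the RefSeq genes of GRCm38.p6 (28020 probes, 21150 genes), whose tables were used for names and promoter windows, since the headers give mm9. The brightest probe on average stood for a gene. Group means were estimated, 4 from 8 arrays, by limma 3.58.1 under R 4.3.3 (4 residual and 1.99 prior degrees of freedom), with Benjamini-Hochberg adjustment. Compared were the knockouts with their controls, these effects with each other, and the Fra-1 line against the Fra-2 line in controls and in knockouts. Where neither array of a group was well above background, the fold is a bound, set against the higher of its own signal and the array's lowest detected signal. The number of arrays limits the precision. The fit was also run on simulated data with shifts added in the Fra-1 knockout group only, and its outcome is not given here. That simulation held no line or slide difference, so it does not bear on the line comparisons.

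All 10 integrin genes were named. From each pathway list, per comparison, up to 4 called genes per direction with the largest change were named, or up to 2 with the smallest p where none was called, and 1 gene so chosen is not reported here. The likeness rule took 2 genes per integrin, leaving out clone-like names. Genes and lists were chosen with earlier results of these data known. Files were read with pandas 2.3.3 and numpy 2.4.6 and drawn with matplotlib 3.10.9 in Python 3.11.15. Alternatives were other background correction, normalization, filters, probe rules, slide terms, priors and left-out arrays.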

Additional observations from a re-analysis of the deposited data

How the results depend on the processing

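Under all alternatives tried, including each array left out, the number of the 10 integrin genes called was 0 in both knockout comparisons and in their difference. It ran from 5 to 8 between controls and from 6 to 10 between knockouts of the 2 lines. Itgax, Itgb3, Itgb5 and Itga4 were called in both line comparisons in the same direction under all of them. For Itgb3 these alternatives used its brighter probe or the mean of its probes, and none used the dimmer probe alone. In the fit of all probes the dimmer probe gave −2.13 between controls and 0.26 between knockouts, and was called in neither. With the mean of its probes, Itgam turned to −1.43 between controls (adjusted p = 0.0073) and was called between knockouts (−1.32, adjusted p = 0.0086), because its dimmer probes then count. Counts of all features called moved more. For the Fra-1 knockout the count was 3, and 11 with a common floor at −3.85, 21 with quantile normalization, 1 with only the groups compared, and 0 with a filter on all 8 arrays, no filter, normexp (offset 50, on median signals), a slide block or a trended prior. Leaving out 1 array gave 0 to 18. For the Fra-2 knockout it was 2, and 4 with a filter on all 8 arrays, 21 with normexp, 18 with quantile normalization, 57 with a trended prior, and 0 with no filter, only the groups compared or a slide block. Leaving out 1 array gave 0 to 46. For the difference of the effects it was 1, and 10 with quantile normalization and 0 with a filter on all 8 arrays, no filter, a slide block or a trended prior, and 0 to 27 with 1 array left out. Between controls it was 8252, and 4962 with a log2 difference of at least 1, and 5592 to 8541 with 1 array left out. Between knockouts it was 9461, and 5413 with a log2 difference of at least 1, and 5432 to 8987 with 1 array left out. The cause of these moves was not tested. Without a filter the median of all features was −0.21 between controls and −0.24 between knockouts. Giving Fra-2 knockout 1 its own mention and setting the Fra-2 arrays side by side by slide were chosen after seeing the data. No paired analysis was possible because the sample numbers in the labels are not shared between groups; the slide, which holds 1 array of each Fra-2 group, was fitted as a block on its own. With 2 arrays a group, differences of the size of the spread between 2 arrays may go undetected, and Fra-2 knockout 1 had the highest detection level.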
